A study of Mus musculus with 9 samples.

Results

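Genes of the cell cycle and of DNA replication were compared between splenic follicular B cells of 3 heavy chain genotypes. Of 35 genes listed, 33 had a probe set annotated with their symbol alone, out of 22180 genes named so on the array. The brightest such probe set stood for each gene. Ccnb1, a mitotic cyclin, had none, and the probe set of Ccne2, an S phase cyclin, carried a second symbol, so neither has a value here. Testing required a signal brighter than the array's own median probe set on 3 or more of 9 arrays. That left 28 of the 33, among 12170 genes tested in all. Of these 28, 20 lay above the median on all 9 arrays and 8 on fewer.

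The groups were cells of Igh epsilon/epsilon mice (ε/ε, homozygous for an allele named after the constant region of IgE), of Igh gamma1/gamma1 mice (γ1/γ1, homozygous for an allele named after the constant region of IgG1) and of mice with the wild-type heavy chain locus, with 3 arrays each. The mice were 6 to 12 weeks old and housed free of specific pathogens, and every genotype label also carried VJk5, which the labels do not explain. No stimulus was named in the labels. The design text calls the replicates independent but does not say that each came from its own mouse, and the p-values cover only the spread between these samples, which may be technical.

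Follicular B cells, which are naive and move between spleen, blood and lymph nodes, rest outside the cell cycle until antigen and T cell help reach them. In a resting cell, Rb family proteins hold E2F transcription factors in check and the DREAM complex keeps mitotic genes silent. D-type cyclins with Cdk4 and Cdk6 lift that block, E2F then drives the helicase, nucleotide and cyclin E genes of S phase, and the mitotic genes follow. Myc, which B cells switch on after receptor engagement, couples that entry to cell growth.

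Values are log2 signals of a probe set as deposited, so a difference of 1 is a doubling, and levels of different probe sets are not set against each other. The array medians lay between 3.53 and 3.69. B cell markers were present throughout, with 6 of 7 measured and all 6 above the array median on each array, while 4 of the 5 T cell markers measured were never above it. Marginal zone markers, all 6 measured, averaged 5.41 to 5.48 on the ε/ε arrays and 5.15 to 5.46 on the γ1/γ1 arrays. On the wild-type arrays they averaged 4.89 to 5.02. Follicular markers, 3 of 5 measured, averaged 8.64 to 8.98 on the ε/ε arrays and 9.34 to 9.42 on the γ1/γ1 arrays. On the wild-type arrays these averaged 8.76 to 8.97. Taken singly, the 3 follicular markers differed by -0.95 to 0.54 between ε/ε and wild-type. Of them 1 was lower at an adjusted p under 0.05 in limma. The 5 marginal zone markers tested differed by -0.17 to 1.68, and 2 were higher at that threshold. Of all genes tested 2.33% were higher and 4.02% lower. The ε/ε arrays also carried macrophage transcripts, whose mean log2 level over 11 markers was 6.97, 4.80 and 4.14 in ε/ε replicates 1, 2 and 3, against 3.80 to 4.02 in γ1/γ1 and 3.71 to 3.77 in wild-type cells. The RNA of the inactive X chromosome, Xist, had a log2 signal of 5.25 in the first ε/ε replicate and of 4.53 in the first γ1/γ1 replicate, against 10.37 to 10.79 on the other arrays. Many deposited values were identical on several arrays to the last digit. At least 2 arrays shared a value in 51.9% of the genes tested and in 13 of the 28 cell cycle genes, and how these arose was not tested.

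E2F and DREAM act through short promoter elements, so 5 promoters that hold one of the words searched are shown from the RefSeq table of the GRCm38.p6 build. Each window runs from 250 bases before to 50 bases after a transcript start, on the minus strand of the chromosome and written 5′ to 3′ of the gene. The E2F motif was searched as TTTCCCGC, TTTCGCGC, TTTGCCGC and TTTGGCGC, and the CHR motif, which DREAM contacts in mitotic genes, as TTTGAA, all on both strands. Capitals mark these words. Top2a lies at chr11:99024140-99024439, Mki67 at chr7:135716330-135716629, Mcm6 at chr1:128359656-128359955, Mcm3 at chr1:20820263-20820562 and Aurka at chr2:172370521-172370820.
Top2a: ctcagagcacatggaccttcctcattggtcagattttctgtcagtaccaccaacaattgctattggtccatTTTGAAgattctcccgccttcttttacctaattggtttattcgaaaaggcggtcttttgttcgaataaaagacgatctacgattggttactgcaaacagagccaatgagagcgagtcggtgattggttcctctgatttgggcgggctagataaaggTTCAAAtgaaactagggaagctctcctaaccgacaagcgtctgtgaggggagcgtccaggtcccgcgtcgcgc
Mki67: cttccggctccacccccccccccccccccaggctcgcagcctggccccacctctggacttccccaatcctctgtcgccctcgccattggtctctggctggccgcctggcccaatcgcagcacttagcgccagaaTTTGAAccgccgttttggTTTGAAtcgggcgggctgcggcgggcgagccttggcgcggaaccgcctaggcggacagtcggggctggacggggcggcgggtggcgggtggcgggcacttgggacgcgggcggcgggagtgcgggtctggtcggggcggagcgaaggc
Mcm6: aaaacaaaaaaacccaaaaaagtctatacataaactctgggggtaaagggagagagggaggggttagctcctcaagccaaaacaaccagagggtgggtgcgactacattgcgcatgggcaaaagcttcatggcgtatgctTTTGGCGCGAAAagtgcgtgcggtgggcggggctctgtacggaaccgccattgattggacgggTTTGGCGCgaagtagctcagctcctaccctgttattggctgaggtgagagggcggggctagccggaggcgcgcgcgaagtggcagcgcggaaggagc
Mcm3: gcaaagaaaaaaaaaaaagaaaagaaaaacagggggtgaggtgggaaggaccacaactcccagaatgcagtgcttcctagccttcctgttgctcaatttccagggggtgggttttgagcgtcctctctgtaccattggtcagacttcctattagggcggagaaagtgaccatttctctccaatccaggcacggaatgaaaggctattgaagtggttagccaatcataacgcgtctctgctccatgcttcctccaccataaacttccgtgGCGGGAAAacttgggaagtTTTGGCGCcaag
Aurka: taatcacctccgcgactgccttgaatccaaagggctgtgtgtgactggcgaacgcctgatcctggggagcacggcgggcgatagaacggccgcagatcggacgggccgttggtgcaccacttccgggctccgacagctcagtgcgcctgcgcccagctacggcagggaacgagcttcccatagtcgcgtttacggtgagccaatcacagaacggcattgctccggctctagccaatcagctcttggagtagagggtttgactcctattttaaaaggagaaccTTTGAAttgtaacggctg

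Top2a and Mki67 each held the CHR word at 2 places and Aurka at 1. Mcm6 held 3 E2F words, of which 2 overlap on opposite strands, and Mcm3 held 2. Windows were found for 29 of the 35 genes. An E2F word was present in 4 of the 5 Mcm genes with a window (Mcm3, Mcm5, Mcm6 and Mcm7) and in 7 of all 29, against 2.60% of 27025 genes with a window. The CHR word was present in 7 of 10 mitotic genes and in 9 of the 29, against 20.2% of all genes with a window. A word match is a description of the letters and does not show binding. No window was found for Myc.

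Between ε/ε and wild-type cells, set against each other to ask what the ε allele changes, Myc rose and no other cell cycle gene passed the test. Of the 28 genes tested, 1 passed higher and 0 passed lower at an adjusted p under 0.05 (limma, adjusted over all 12170 genes), while 6.34% of all genes passed, 2.33% higher and 4.02% lower. Their median difference was -0.01, as was the median over all genes tested, and the single differences ran from -0.80 to 0.83. At an unadjusted p under 0.05 there were 6 of 28, against 24.8% of all genes. The 3 ε/ε arrays lay apart from the 3 wild-type arrays in 6 of the 28 genes, 5 higher (Mki67, Top2a, Mcm4, Ccnd3 and Myc) and 1 lower (Mcm6), against 28.4% of all genes, 11.8% higher and 16.6% lower. For 20 of the 28 genes the 95% interval of the difference lay within a doubling either way.

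Between γ1/γ1 and wild-type cells, which ask the same of the γ1 allele, 0 of 28 genes passed in either direction in limma, where 0.0411% of all genes did, 0.0247% higher and 0.0164% lower. Only Mcm6 had no overlap between the γ1/γ1 and wild-type arrays, and it was lower, where 12.4% of all genes had none, 4.68% higher and 7.71% lower. At an unadjusted p under 0.05 there was 1, Mcm6, against 6.82% of all genes. The median difference was -0.09, beside -0.02 over all genes tested, and the differences ran from -0.66 to 0.39. The 95% interval lay within a doubling either way for 23 genes. Between ε/ε and γ1/γ1 cells 0 of 28 passed, where 2.66% of all genes did, 1.02% higher and 1.64% lower. The arrays of these genotypes lay apart in 5 of the 28 genes, 4 higher (Mki67, Top2a, Ccnd3 and Myc) and 1 lower (Tyms), against 21.1% of all genes, 9.86% higher and 11.3% lower. There were 7 at an unadjusted p under 0.05, against 19.9% of all genes. The smallest adjusted p there was 0.0687, for Top2a. In limma's F test over the 3 genotypes 0 of 28 passed, against 4.11% of all genes, with 7 at an unadjusted p under 0.05 and a smallest adjusted p of 0.0755, for Myc. These contrasts share arrays, so their counts are not independent of one another.

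**Figure D1:**
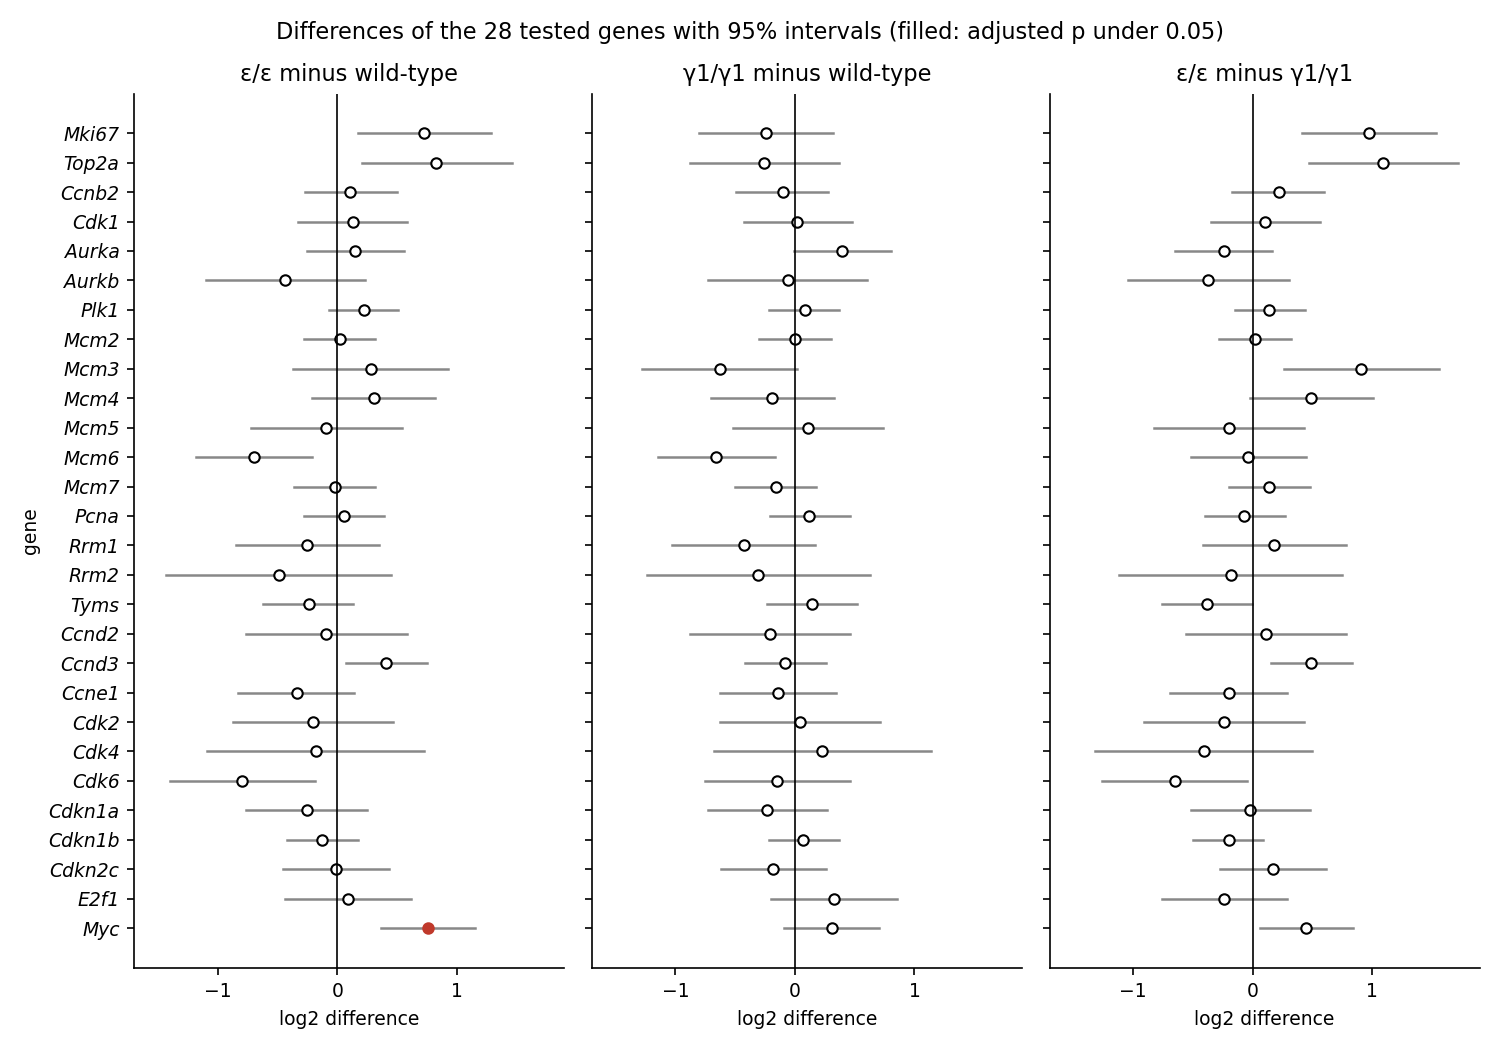
Log2 difference (horizontal axis) of each of the 28 cell cycle genes tested, with its 95% interval, in a panel each for ε/ε against wild-type, γ1/γ1 against wild-type and ε/ε against γ1/γ1 cells. The 1 filled point, Myc at 0.76 in the ε/ε against wild-type panel, passed at an adjusted p under 0.05; the other points run from -0.80 to 1.09.

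Of the transcription factors, Myc read 8.06, 8.06 and 8.09 on the ε/ε arrays, 7.74, 7.85 and 7.26 on the γ1/γ1 arrays and 7.41, 7.09 and 7.42 on the wild-type arrays. All 3 ε/ε arrays lay above the 6 others and within 0.03 of each other, whereas the γ1/γ1 arrays overlapped the wild-type ones. Myc rose by 0.76 in ε/ε against wild-type (SE 0.18, 1.69-fold, limma adjusted p = 0.0332). The γ1/γ1 difference from wild-type was 0.31 (95% interval -0.09 to 0.70, adjusted p = 0.779). The difference between ε/ε and γ1/γ1 was 0.45 (95% interval 0.06 to 0.84, adjusted p = 0.194), so the 2 mutant genotypes were not shown to differ.

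Without ε/ε replicate 1, the array with the highest macrophage markers, the Myc difference was again 0.76 but did not pass (adjusted p = 0.0720). The call was less stable than the value. Leaving out any 1 of the ε/ε or wild-type arrays gave differences of 0.65 to 0.81 and adjusted p-values of 0.0627 to 0.133, and without the 2 arrays of low Xist the adjusted p was 0.0809.

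E2f1, the E2F factor that drives entry into S phase, read 3.80, 3.77 and 4.06 on the ε/ε arrays, 4.73, 3.85 and 3.75 on the γ1/γ1 arrays and 3.91, 3.68 and 3.77 on the wild-type arrays. The genotypes overlapped, with 1 high reading in γ1/γ1 replicate 1. E2f2, a relative of E2f1, was above the array median on 2 of 9 arrays and was not tested, with readings of 3.21 to 3.61 on the ε/ε arrays, 3.55 to 3.83 on the γ1/γ1 arrays and 3.31 to 4.02 on the wild-type arrays.

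Partners, antagonists and related factors of Myc, and its known targets, were listed beside the 35 genes. Their counts are read against the 6.34% of all genes that passed in ε/ε against wild-type and the 24.8% with an unadjusted p under 0.05. Of 9 genes tested among the partners, antagonists and related factors 0 passed in either direction and 3 had an unadjusted p under 0.05. Their median difference was 0.41 beside -0.01 over all genes tested. The smallest p-values there belonged to Mlx, a partner of the glucose-sensing Mondo factors, with a difference of 0.66 (adjusted p = 0.117), and to Mga, a repressor that binds Max, with -0.34 (adjusted p = 0.151). Of 23 growth genes that Myc is known to activate, 0 passed, 4 had an unadjusted p under 0.05, and the median was 0.05. Srm, which makes spermidine, differed by 0.84 (adjusted p = 0.0653) and Npm1, a nucleolar chaperone of ribosome assembly, by -0.70 (adjusted p = 0.0689), so those nearest the threshold lay on opposite sides of 0. In γ1/γ1 against wild-type 0 passed in either list (0 and 1 at an unadjusted p under 0.05), where 0.0411% of all genes passed and 6.82% had such a p, with medians of -0.03 and -0.25 beside -0.02 over all genes.

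**Figure D2:**
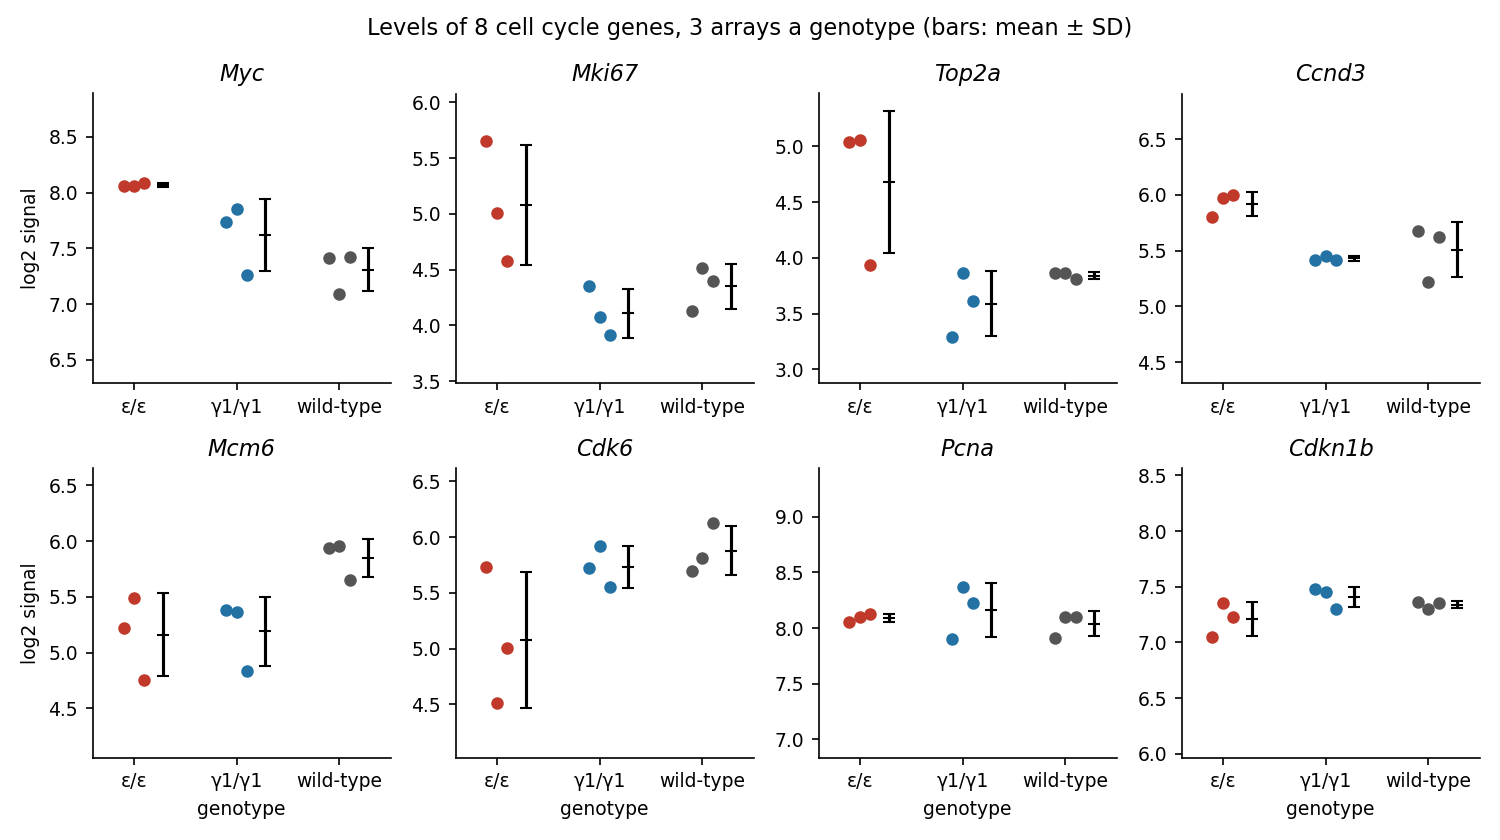
Log2 signal (vertical axis) of 8 cell cycle genes on the 3 arrays of each genotype (points), with the mean and SD beside them; every panel spans the same height, and none starts at 0. Myc in ε/ε sits at 8.06 to 8.09, above the other 6 arrays, while the genotypes overlap for Pcna and Cdkn1b.

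Of the mitotic genes, Mki67 and Top2a stood highest in ε/ε cells without passing the test. Mki67, which encodes the proliferation marker Ki-67, read 5.65, 5.01 and 4.58 on the ε/ε arrays, 4.35, 4.07 and 3.91 on the γ1/γ1 arrays and 4.13, 4.51 and 4.40 on the wild-type arrays. Each ε/ε array lay above the 6 others, although ε/ε replicate 3 exceeded the highest wild-type array only slightly. The difference was 0.73 against wild-type (SE 0.25, 95% interval 0.17 to 1.29, limma adjusted p = 0.109) and 0.97 against γ1/γ1 (adjusted p = 0.0696, SE 0.25).

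Top2a, the topoisomerase that untangles replicated chromosomes, read 5.04, 5.06 and 3.94 on the ε/ε arrays, 3.29, 3.86 and 3.61 on the γ1/γ1 arrays and 3.86, 3.86 and 3.81 on the wild-type arrays. The ε/ε arrays again lay above the rest, and 2 of them by more than a doubling. The difference was 0.83 against wild-type (adjusted p = 0.103, SE 0.28) and 1.09 against γ1/γ1 (adjusted p = 0.0687, SE 0.28).

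Ccna2, the cyclin of S phase and G2, was above the array median only on ε/ε replicates 1 and 2 and was not tested. It read 4.60, 3.72 and 3.06 on the ε/ε arrays, 3.35, 2.68 and 3.12 on the γ1/γ1 arrays and 3.13, 3.51 and 3.12 on the wild-type arrays. Here ε/ε replicate 3 lay below all 3 wild-type arrays, so the genotypes overlapped.

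In Mki67, Ccna2 and Cdk1 the 3 ε/ε arrays ran in the order of the macrophage markers, with replicate 1 highest and replicate 3 lowest. The other mitotic genes measured did not follow that order (Top2a, Ccnb2, Plk1, Aurka, Aurkb, Bub1, Bub1b and Birc5). Of the 12 macrophage markers listed 11 were measured, and 0 of the 11 stayed below the array median on every array. All 11 were above it on ε/ε replicate 1, 9 and 7 on ε/ε replicates 2 and 3, 6 or 7 on each γ1/γ1 array and 6 or 7 on each wild-type array. Without ε/ε replicate 1 the difference from wild-type was 0.44 for Mki67 (adjusted p = 0.242) and 0.65 for Top2a (adjusted p = 0.251). Without ε/ε replicate 3 both passed, at 0.98 (adjusted p = 0.0459) and 1.21 (adjusted p = 0.0114) against wild-type and at 1.22 (adjusted p = 0.0354) and 1.46 (adjusted p = 0.0106) against γ1/γ1. The part of the macrophage transcripts in these readings was not tested. In sorted bulk cells, a few cycling cells and more transcript in every cell cannot be told apart.

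**Figure D3:**
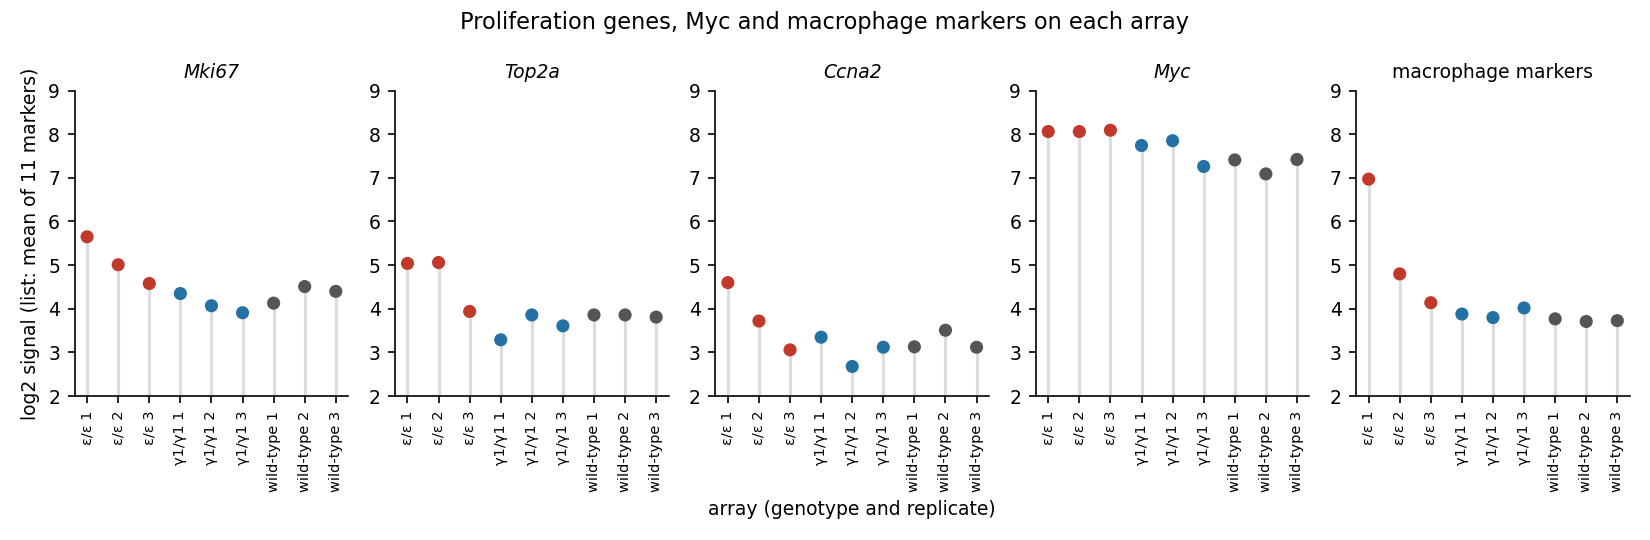
Log2 signal (vertical axis, from 2) of Mki67, Top2a, Ccna2 and Myc, and the mean log2 signal of 11 macrophage markers, on each of the 9 arrays (ε/ε red, γ1/γ1 blue, wild-type grey). The marker mean is 6.97, 4.80 and 4.14 in ε/ε replicates 1 to 3, where Mki67 reads 5.65, 5.01 and 4.58 and Myc 8.06, 8.06 and 8.09.

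Markers of other cells that may cycle in the spleen spanned narrower ranges than the macrophage markers. Germinal centre markers averaged 3.79 to 4.34 on the ε/ε arrays, 4.24 to 4.32 on the γ1/γ1 arrays and 4.20 to 4.26 on the wild-type arrays, over 7 of 8 measured, with Gcsam and Nuggc never above the array median. Plasma cell markers averaged 4.21 to 4.52 on the ε/ε arrays, 4.07 to 4.18 on the γ1/γ1 arrays and 4.05 to 4.26 on the wild-type arrays, over 6 of 7 measured, with Jchain never above it. Erythroid precursor markers averaged 3.84 to 3.99 on the ε/ε arrays, 3.75 to 3.77 on the γ1/γ1 arrays and 3.81 to 4.01 on the wild-type arrays, over 7 of 11 measured, with Klf1 and Car1 never above it. The ε/ε and wild-type ranges of these means overlapped for the 3 lists. Taken singly, 2 of the 3 plasma cell markers tested had all ε/ε arrays above all wild-type arrays, as did 11.8% of all genes. The 3 differed by -0.33 to 0.96, and 0 passed. Of 4 germinal centre and 5 erythroid markers tested, 0 lay apart in either direction. Against γ1/γ1 the ε/ε range of means lay higher for the plasma cell and erythroid markers and overlapped for the germinal centre markers. Over the ε/ε arrays the plasma cell means (4.52, 4.29 and 4.21) and the germinal centre means (4.34, 4.32 and 3.79) ran in the same order as Mki67, and their part in its readings was not tested. Pro-B and pre-B cell markers averaged 3.28, 2.75 and 3.39 on the ε/ε arrays, 2.81 to 2.88 on the γ1/γ1 arrays and 2.64 to 2.99 on the wild-type arrays, over 5 of 6 measured, which placed ε/ε replicates 1 and 3 above the 6 other-genotype arrays while Vpreb1 and Il7r were never above the array median.

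The remaining mitotic genes gave no call. Cdk1, the kinase that starts mitosis, read 3.72, 3.55 and 3.23 on the ε/ε arrays, 3.80, 3.38 and 3.01 on the γ1/γ1 arrays and 3.38 on all 3 wild-type arrays, a difference of 0.13 between ε/ε and wild-type (95% interval -0.33 to 0.58). Its partner cyclin Ccnb2 read 4.35, 4.94 and 4.78 on the ε/ε arrays, 4.27, 4.58 and 4.58 on the γ1/γ1 arrays and 4.58 on all 3 wild-type arrays. In both genes the wild-type value is a shared one, so the spread within that genotype is 0 to the last digit and says little of the error.

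Plk1, a kinase of spindle assembly, read 4.10, 3.86 and 3.95 on the ε/ε arrays, 3.86, 3.76 and 3.86 on the γ1/γ1 arrays and 3.73, 3.88 and 3.64 on the wild-type arrays. Aurka, the centrosome kinase, read 3.67, 3.31 and 3.48 on the ε/ε arrays, 3.75, 3.96 and 3.48 on the γ1/γ1 arrays and 3.48, 3.48 and 3.05 on the wild-type arrays, and its γ1/γ1 difference from wild-type was 0.39 (adjusted p = 0.727). Aurkb, which corrects chromosome attachment, read 3.20, 3.75 and 3.75 on the ε/ε arrays, 4.55, 3.58 and 3.69 on the γ1/γ1 arrays and 4.50, 3.87 and 3.64 on the wild-type arrays. The genotypes overlapped in all 3 kinases. Bub1 and Bub1b, of the spindle checkpoint, and Birc5, the survivin subunit of the Aurora B complex, were not tested. Bub1 and Birc5 were above the array median on 0 of 9 arrays, with readings of 2.49 to 2.94 and 2.17 to 2.88, and Bub1b on 1, with readings of 3.10 to 3.72.

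**Figure D4:**
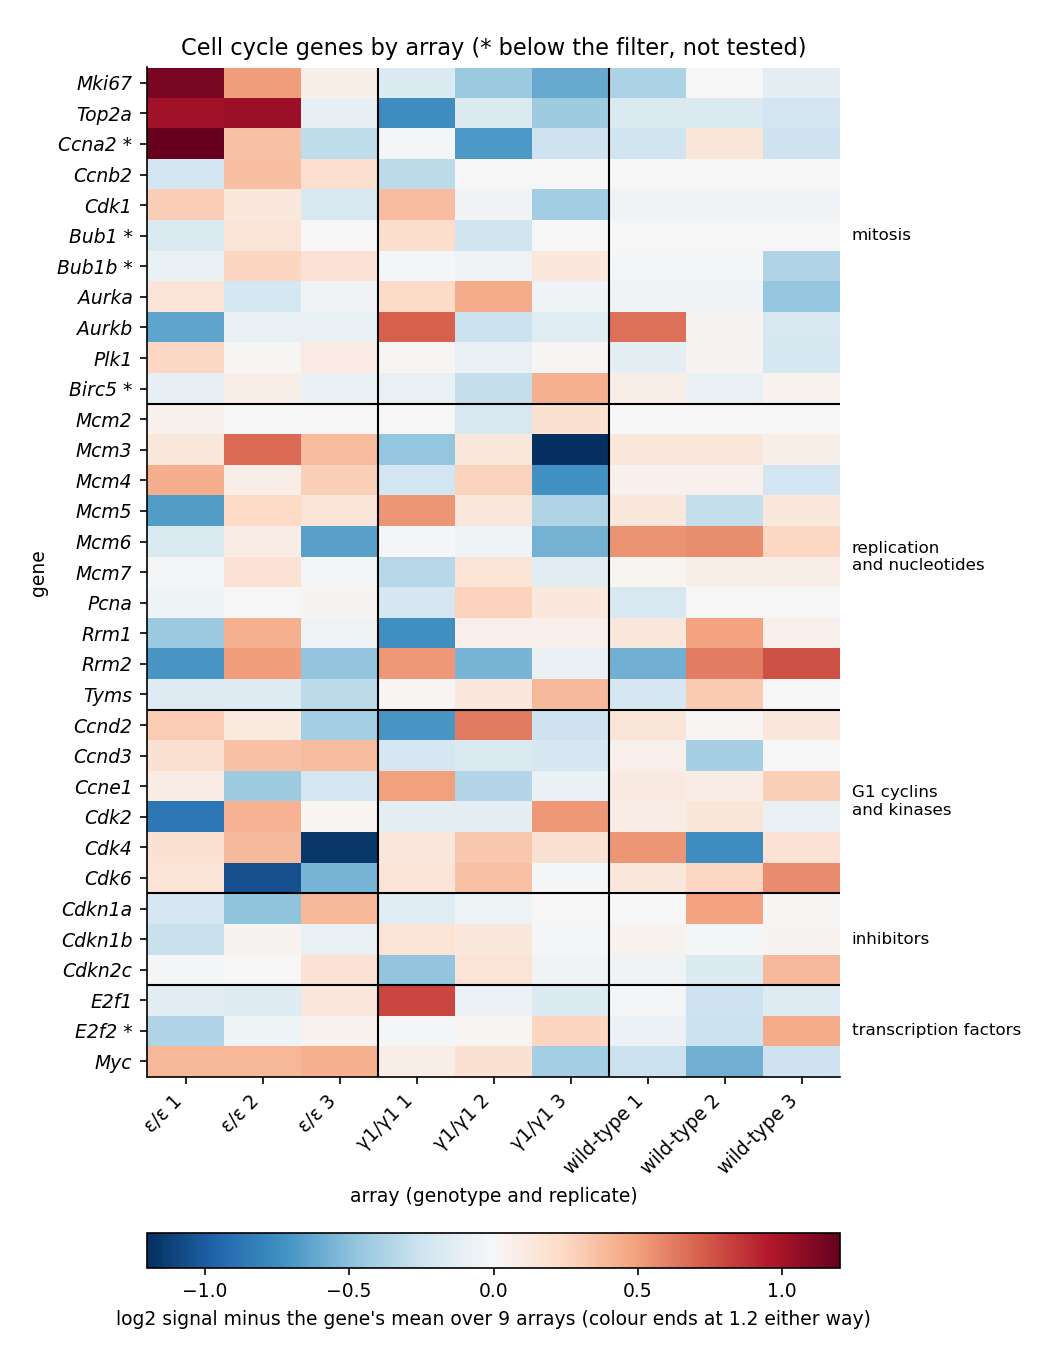
Log2 signal of the 33 measured cell cycle genes (rows, grouped by role) on each array (columns), minus the gene's mean over 9 arrays; red is above that mean and blue below, and an asterisk marks the 5 genes that were not tested. Mki67, Top2a and Ccna2 are reddest in ε/ε replicates 1 and 2, and Myc is red in all 3 ε/ε arrays. Other rows also share a colour within a genotype, such as Ccnd3, red in ε/ε and blue in γ1/γ1.

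Of the replication genes, the 6 subunits of the Mcm2 to Mcm7 helicase, which is loaded at origins before S phase, gave no call in any comparison. Mcm6 read 5.22, 5.49 and 4.75 on the ε/ε arrays, 5.38, 5.36 and 4.83 on the γ1/γ1 arrays and 5.94, 5.96 and 5.65 on the wild-type arrays. All 6 mutant arrays lay below the 3 wild-type arrays. The difference from wild-type was -0.70 in ε/ε (adjusted p = 0.0850, SE 0.22) and -0.66 in γ1/γ1 (adjusted p = 0.618, SE 0.22), so it passed in neither, and these contrasts share the wild-type arrays.

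Mcm3 read 5.01, 5.55 and 5.25 on the ε/ε arrays, 4.41, 5.01 and 3.64 on the γ1/γ1 arrays and 5.01, 5.01 and 4.94 on the wild-type arrays. It was lowest in γ1/γ1 replicate 3, and the ε/ε difference from γ1/γ1 was 0.91 (95% interval 0.26 to 1.56, adjusted p = 0.125). Mcm4 read 6.06, 5.71 and 5.91 on the ε/ε arrays, 5.40, 5.90 and 4.90 on the γ1/γ1 arrays and 5.68, 5.68 and 5.40 on the wild-type arrays, also lowest in γ1/γ1 replicate 3. Its ε/ε arrays lay just above the wild-type ones (0.31, adjusted p = 0.447).

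Mcm2 read 5.10, 5.04 and 5.04 on the ε/ε arrays, 5.04, 4.85 and 5.23 on the γ1/γ1 arrays and 5.04 on all 3 wild-type arrays, with 1 value shared by 6 of 9 arrays. Mcm5 and Mcm7 differed by -0.09 and -0.02 between ε/ε and wild-type and by 0.11 and -0.16 between γ1/γ1 and wild-type. Over the 6 tested genes with an E2F word (Cdk1, Cdk2, Mcm3, Mcm5, Mcm6 and Mcm7) the median difference from wild-type was -0.06 in ε/ε and -0.07 in γ1/γ1. Over the 7 with the CHR word (Aurka, Ccnb2, Cdk1, Mcm2, Mki67, Plk1 and Top2a) it was 0.15 in ε/ε and 0.00 in γ1/γ1. In ε/ε all 7 were above 0, from 0.02 to 0.83, as were 5876 of all 12170 genes tested. The medians over all genes tested were -0.01 in ε/ε and -0.02 in γ1/γ1. All of the 7 but Mcm2 are mitotic genes already described. These splits were made with the values known and carry no test.

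Pcna, the sliding clamp of the replication fork, was bright on every array. It read 8.05, 8.10 and 8.13 on the ε/ε arrays, 7.90, 8.37 and 8.22 on the γ1/γ1 arrays and 7.91, 8.10 and 8.10 on the wild-type arrays. The genotypes overlapped, with a difference from wild-type of 0.06 in ε/ε (95% interval -0.28 to 0.39) and 0.12 in γ1/γ1 (95% interval -0.21 to 0.46).

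The enzymes that make deoxynucleotides were also without a call. Rrm1, the large subunit of ribonucleotide reductase, read 4.82, 5.69 and 5.23 on the ε/ε arrays, 4.53, 5.33 and 5.33 on the γ1/γ1 arrays and 5.40, 5.75 and 5.33 on the wild-type arrays. Its S phase partner Rrm2 spread over 3.35 to 4.55 on the ε/ε arrays, 3.49 to 4.57 on the γ1/γ1 arrays and 3.47 to 4.81 on the wild-type arrays, so the interval of its ε/ε difference from wild-type ran from -1.43 to 0.45. Rrm2 was the widest of all 28. Tyms, which makes thymidylate, read 4.45, 4.45 and 4.29 on the ε/ε arrays, 4.62, 4.73 and 4.99 on the γ1/γ1 arrays and 4.40, 4.92 and 4.60 on the wild-type arrays. Its ε/ε arrays lay below the γ1/γ1 ones, with a difference of -0.38 (95% interval -0.76 to -0.01, adjusted p = 0.241).

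Of the G1 cyclins and kinases, Ccnd3 and Cdk6 came nearest to the threshold. Ccnd3, a D-type cyclin of lymphocytes, read 5.80, 5.97 and 6.00 on the ε/ε arrays, 5.42, 5.45 and 5.42 on the γ1/γ1 arrays and 5.68, 5.22 and 5.62 on the wild-type arrays. Its ε/ε arrays lay above the 6 others, and the mean differences were 0.41 over wild-type (adjusted p = 0.130, SE 0.15) and 0.49 over γ1/γ1 (adjusted p = 0.114, SE 0.15). Ccnd2, the D-type cyclin that B cells induce on activation, read 5.53, 5.34 and 4.82 on the ε/ε arrays, 4.53, 5.85 and 4.98 on the γ1/γ1 arrays and 5.37, 5.25 and 5.36 on the wild-type arrays, with overlap throughout and a difference of -0.09 between ε/ε and wild-type (95% interval -0.76 to 0.58).

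Cdk6, a kinase partner of the D-type cyclins, read 5.73, 4.51 and 5.01 on the ε/ε arrays, 5.72, 5.92 and 5.55 on the γ1/γ1 arrays and 5.70, 5.81 and 6.13 on the wild-type arrays. Only ε/ε replicates 2 and 3 were low, and replicate 1 overlapped the wild-type arrays. Cdk6 differed by -0.80 in ε/ε against wild-type (adjusted p = 0.106, SE 0.27), and without ε/ε replicate 1 it passed at -1.12 (adjusted p = 0.0270). Cdk4, the other such partner, was low on ε/ε replicate 3 (4.78) and wild-type replicate 2 (5.20) and read 6.08 to 6.48 elsewhere.

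Ccne1, the cyclin that fires S phase with Cdk2, read 5.22, 4.70 and 4.93 on the ε/ε arrays, 5.62, 4.78 and 5.05 on the γ1/γ1 arrays and 5.24, 5.22 and 5.42 on the wild-type arrays. Cdk2 itself was lowest in ε/ε replicate 1 (4.45) and read 5.20 to 5.84 elsewhere. In both genes the genotypes overlapped, with ε/ε differences from wild-type of -0.34 and -0.20.

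The inhibitors of these kinases showed no call either. Cdkn1b, the p27 protein that marks resting lymphocytes, read 7.05, 7.35 and 7.23 on the ε/ε arrays, 7.48, 7.45 and 7.30 on the γ1/γ1 arrays and 7.36, 7.30 and 7.35 on the wild-type arrays. Its differences from wild-type of -0.13 in ε/ε (95% interval -0.42 to 0.17) and 0.07 in γ1/γ1 (95% interval -0.22 to 0.37) were among the narrowest. Cdkn1a, the p21 protein induced by p53, averaged 4.27 ± 0.45 on the ε/ε arrays, 4.29 ± 0.07 on the γ1/γ1 arrays and 4.52 ± 0.28 on the wild-type arrays (SD, n = 3 each). Cdkn2c, the p18 inhibitor of Cdk4 and Cdk6, averaged 3.66 ± 0.10 on the ε/ε arrays, 3.49 ± 0.32 on the γ1/γ1 arrays and 3.67 ± 0.29 on the wild-type arrays (SD, n = 3 each), close to the array medians.

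Beyond the 35 genes, 8 further lists of the cell cycle and of quiescence held 164 genes tested. In ε/ε against wild-type 3 of them rose and 9 fell, or 7.32%, beside 6.34% of all genes. In γ1/γ1 against wild-type 0 of the 164 passed in limma and 11 had an unadjusted p under 0.05, against 0.0411% and 6.82% of all genes. All 9 that fell belonged to the 148 genes outside the quiescence list, 6.08% of them, where 4.02% of all genes fell.

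Of 41 genes of origin licensing and the replication fork 0 rose and 3 fell, where 2.33% of all genes rose and 4.02% fell. Their median difference was 0.05. Orc3 and Orc4, subunits of the complex that marks origins, averaged 7.34 and 7.03 in ε/ε cells and 8.04 and 7.83 in wild-type cells, and fell by 0.70 (adjusted p = 0.0255, SE 0.15) and 0.80 (adjusted p = 0.0194, SE 0.16). Tipin, which steadies stalled forks, fell by 0.76 (adjusted p = 0.0385, SE 0.18). Each of the 3 was lower on all 3 ε/ε arrays than on any wild-type array. The same held for 10 of the 41 genes, these 3 included, and for 16.6% of all genes. The 3 were named because they passed on these same values.

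Of 35 genes of the spindle, the kinetochore and chromosome condensation 0 rose and 4 fell, where 2.33% of all genes rose and 4.02% fell. Their median difference was again 0.05. All 3 ε/ε arrays lay below the wild-type arrays in 7 of the 35, and in 16.6% of all genes. Smc4 and Smc2, the paired ATPases of condensin, averaged 7.70 and 5.28 in ε/ε and 8.66 and 5.98 in wild-type cells, and fell by 0.95 (adjusted p = 0.0100, SE 0.16) and 0.70 (adjusted p = 0.0235, SE 0.15). Bub3, of the spindle checkpoint, fell by 1.11 (adjusted p = 0.0227, SE 0.23) and Ndc80, which grips microtubules at the kinetochore, by 0.89 (adjusted p = 0.0315, SE 0.20). None of the 4 passed in γ1/γ1 against wild-type, where Smc2 and Smc4 differed by -0.50 and -0.52 (adjusted p = 0.524 and 0.544), nor between ε/ε and γ1/γ1.

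Rb1, the retinoblastoma protein that restrains E2F, was the only 1 of 13 genes of Rb, E2F and DREAM that passed, and it fell by 0.78 in ε/ε (adjusted p = 0.0284, SE 0.17). It averaged 7.68 on the ε/ε arrays, 8.33 on the γ1/γ1 arrays and 8.46 on the wild-type arrays. Ccng1, a cyclin induced by p53, was the only 1 of 13 other cyclins and kinase inhibitors that passed, and it fell by 0.76 (adjusted p = 0.0365, SE 0.18). Both counts of 1 in 13 stand beside the 6.34% of all genes that passed, 2.33% higher and 4.02% lower. Of 14 genes of DNA damage and p53 0 passed and 5 had an unadjusted p under 0.05, against 6.34% and 24.8% of all genes, with differences of 0.94 for Gadd45b (adjusted p = 0.0726) and -0.57 for Sesn1 (adjusted p = 0.0803), both stress genes.

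Of 16 genes of quiescence and arrest 3 rose and 0 fell in ε/ε against wild-type, where 2.33% of all genes rose and 4.02% fell. Their median difference was 0.43, beside -0.01 over all genes tested. Klf4, a factor that restrains B cell proliferation, read 4.82, 4.55 and 4.82 on the ε/ε arrays, 3.81, 3.43 and 3.31 on the γ1/γ1 arrays and 3.65, 3.79 and 3.49 on the wild-type arrays. It rose by 1.09 against wild-type (adjusted p = 0.00745, SE 0.17) and by 1.22 against γ1/γ1 (adjusted p = 0.00707). Zfp36l2 and Zfp36l1, which bind AU-rich elements and speed RNA decay, rose by 1.26 (adjusted p = 0.0310, SE 0.29) and 1.11 (adjusted p = 0.0451, SE 0.28) against wild-type. Zfp36l2 also rose by 1.28 against γ1/γ1 (adjusted p = 0.0480), where Zfp36l1 differed by 0.67 (adjusted p = 0.222).

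These calls depended on single arrays, as did the number of calls over all genes tested. Of the 9 genes that fell, 2 passed without ε/ε replicate 1 (Smc2 and Smc4), 4 without ε/ε replicate 2 and 5 without ε/ε replicate 3. When wild-type replicate 1 was left out 3 passed, when replicate 2 was left out 0 passed, and when replicate 3 was left out 2 passed. Over all genes tested 772 passed in the reported fit, and 525, 752 and 656 without ε/ε replicates 1, 2 and 3. Without wild-type replicates 1, 2 and 3 the calls over all genes numbered 512, 186 and 210. Against wild-type, Klf4 passed in all 18 alternatives in which it was tested. Zfp36l1 passed in 6 of 19 and Zfp36l2 in 9 of 19.

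**Figure D5:**
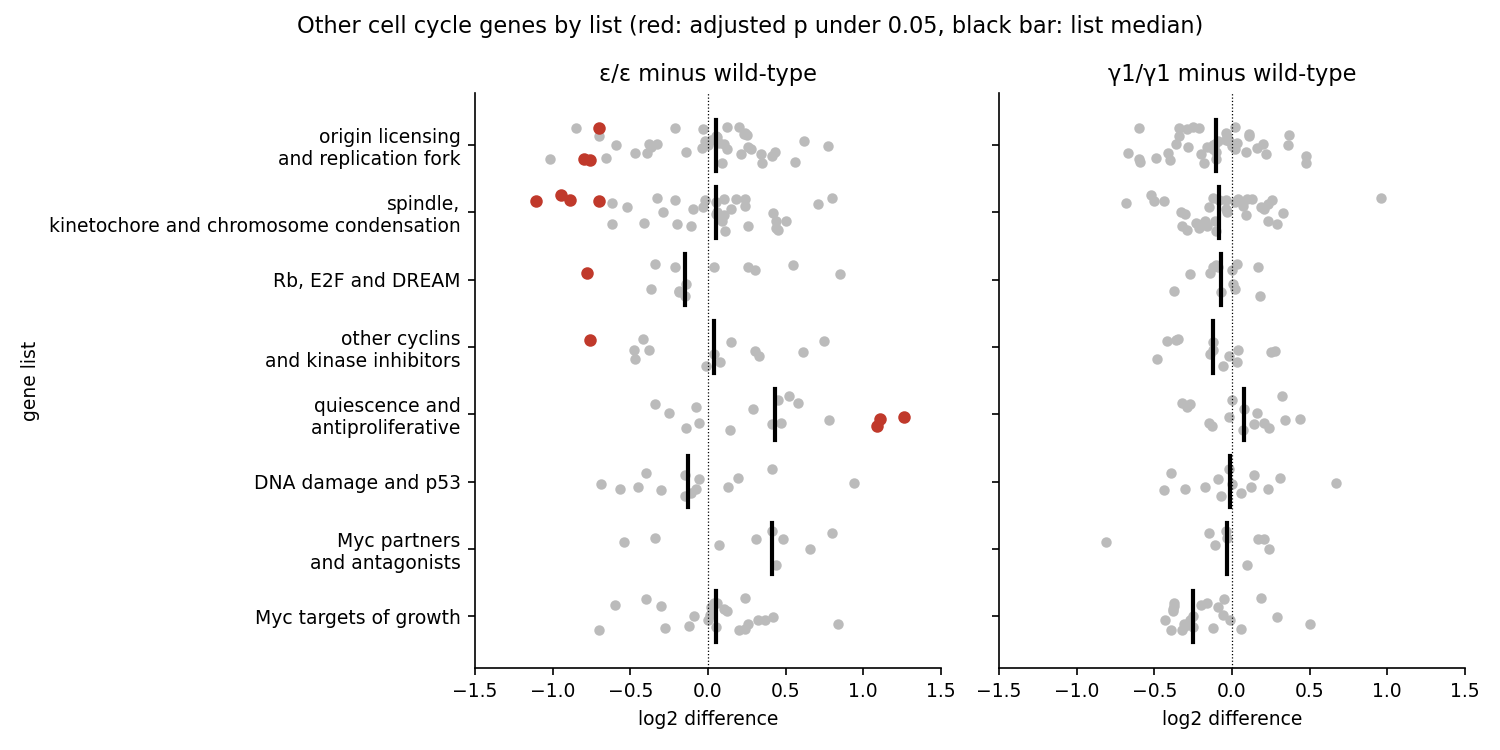
Log2 difference (horizontal axis) of the 164 tested genes of 8 further lists (rows), with ε/ε against wild-type on the left and γ1/γ1 against wild-type on the right; each point is a gene, red where its adjusted p is under 0.05, and the black bar is the list median. In ε/ε 9 genes are red on the low side and 3 on the high side, all 3 in the quiescence list; in γ1/γ1 0 are red.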

How the data were processed

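Follicular B cells were sorted from spleen and profiled on 9 single-colour arrays, 3 per genotype; per the labels' protocols, RNA extracted with Trizol was amplified (Nugen Ovation PicoWTA) and biotinylated. The authors deposited log2 signals of 41345 probe sets. R 3.3.1 was used, per the submitters' processing notes. The sources used here do not give the background correction, normalization or probe summary. The platform annotation gave 23521 probe sets 1 symbol. For arrays, their number limits the precision.

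A linear model over the 9 arrays, with a mean for each genotype and no covariates, was fitted with limma 3.58.1 under R 4.3.3 (lmFit and eBayes), and p-values were adjusted by Benjamini-Hochberg over 12170 genes; the threshold was 0.05. The code was tested on simulated data. Every adjusted p comes from limma.

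The 35 genes and all lists were chosen with earlier results of these data known. Given in full were the genes that passed in any test, 10 genes always named, and those of smallest F test p up to 20; of other lists, up to 4 that passed with the largest difference or the 2 of smallest p. E2f1, Ccnb2, Cdk2, Cdk4, Rrm2, Mcm5, Mcm7 and the inhibitors were added to account for every gene. Alternatives were leaving out each array, leaving out the 2 arrays of low Xist, fitting the 6 arrays of a comparison alone, array weights, a block for replicate number, quantile normalization, median centring, averaging a gene's probe sets, a trended robust variance, dropping the filter or raising it to percentile 75, an adjusted p under 0.1, and a log2 difference of at least 1. Figures were drawn with matplotlib 3.10.9.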

Additional observations from a re-analysis of the deposited data

How the results depend on the processing

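In ε/ε against wild-type the count of cell cycle genes that passed was 1 in the reported fit (Myc), 2 with array weights (Myc and Cdk6), 2 at an adjusted p under 0.1 (Myc and Mcm6), 0 with a log2 difference of at least 1, and 0 to 2 with 1 array left out; the 2 were Mki67 and Top2a, without ε/ε replicate 3. In γ1/γ1 against wild-type it was 0 under each alternative. Between ε/ε and γ1/γ1 it was 2 at an adjusted p under 0.1 (Mki67 and Top2a) and 0 to 2 with 1 array left out. In the F test it was 1 under quantile normalization (Myc), 3 at an adjusted p under 0.1, and 0 to 1 with 1 array left out. Myc passed in 11 of 19 alternatives, with differences of 0.65 to 0.93 and adjusted p-values of 0.0129 to 0.133. The cause of these changes was not tested.

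The median difference of ε/ε from wild-type was 0.040 under quantile normalization and -0.111 under the filter at percentile 75, beside 0.053 and -0.109 over all genes, and -0.053 to 0.021 with 1 array left out. For γ1/γ1 from wild-type it was -0.134 to -0.016 with 1 array left out. For ε/ε from γ1/γ1 it was 0.062 with arrays centred on their medians, 0.077 without the 2 arrays of low Xist, beside 0.063 and -0.00 over all genes, and -0.008 to 0.095 with 1 array left out. Among 1062 alternative values of the genes given in full, the sign changed in 39, none of which passed. The deviations of samples of 1 replicate number correlated at -0.0905 to 0.156. Samples of different numbers were not compared in this way, so whether the numbers pair samples was not settled. With the replicate block 1 gene passed in ε/ε against wild-type in limma, Mcm6 (adjusted p = 0.0363) in place of Myc (0.0579). Of the 9 further genes that fell, 5 passed under quantile normalization, where 710 genes passed in all, beside 772 in the reported fit. Bub1 and Birc5 lay below the array median on all 9 arrays and were not tested, and signals near it limit what Cdk1 and Aurka can show.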
